A study of Mus musculus with 4 samples.

Results

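Plasmacytoid dendritic cells (pDCs) were selected on their counts of marker transcripts in 4 single-cell RNA-Seq libraries of mouse bone. A pDC was a barcode with at least 2 UMIs (unique molecular identifiers, 1 for every RNA molecule read) of Siglech and at least 5 of Siglech, Ccr9 and Bst2 together. S100a8 and S100a9, the abundant neutrophil transcripts, had to make up less than 3% of its UMIs, and the cartilage collagen gene Col2a1 less than 1%. Barcodes also needed at least 500 UMIs, at least 200 genes and at most 10% mitochondrial UMIs. In this way 98 of 23216 passing barcodes were pDCs, 61 in callus and 37 in trabecular bone.

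The libraries came from 20-week-old C57BL/6J male mice at week 2, 1 from fracture callus and 1 from trabecular bone for each treatment. Control mice received placebo, and GC mice received the glucocorticoid prednisolone at 6.25 mg/kg/d. The labels describe slow-release pellets under the skin throughout, whereas the paper describes pellets for bone loss and daily injection for fracture. How many mice stand behind a library is not given in the sources used here. With 1 library per group no test between groups was possible. All intervals are 95% intervals for counting error, and a difference beyond them compares these libraries, not the conditions. Series of 4 values below run in 1 order, callus control, callus GC, trabecular control and trabecular GC. In this order the matrices held 95852254, 64388215, 41239842 and 45876714 UMIs, and 7133, 7318, 3977 and 4788 barcodes passed. The callus GC matrix lists only barcodes of at least 500 UMIs, so its total is not like the others. The passing barcodes held 89162394, 63497992, 35653535 and 39645225 UMIs.

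pDCs are the immune cells best known for making large amounts of type I interferon when viral nucleic acids reach their endosomes. They develop in bone marrow from progenitors that carry the growth factor receptor Flt3, under the transcription factor Tcf4 (E2-2), and Irf8 is also needed for their normal state. Siglech is a sialic acid-binding receptor, Ccr9 a chemokine receptor, and Bst2 (tetherin) a membrane protein that holds budding viruses back. In the resting state they carry little of the class II machinery with which conventional dendritic cells (DCs) present antigen.

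The promoters of 3 genes by which these cells stood out are shown. The E-box is the kind of site that Tcf4 and related factors bind, and the interferon-response type repeat the kind that interferon regulatory factors bind. The windows are the 250 bases before the RefSeq transcription start on GRCm38.p6, printed along the gene's strand, with capitals for matches to the E-box CACCTG, read as CAGGTG on the other strand, or to an interferon-response type repeat, GAAA followed after any 2 bases by GAAA. The Siglech window is chr7:55767934-55768183 on the plus strand, whose last 6 bases are exonic in GENCODE M21. The Klk1 window is chr7:44225110-44225359 on the plus strand, inside the Gm10109 gene model but in none of its exons. The Bst2 window is chr8:71537473-71537722 on the minus strand, in no other gene model.
Siglech: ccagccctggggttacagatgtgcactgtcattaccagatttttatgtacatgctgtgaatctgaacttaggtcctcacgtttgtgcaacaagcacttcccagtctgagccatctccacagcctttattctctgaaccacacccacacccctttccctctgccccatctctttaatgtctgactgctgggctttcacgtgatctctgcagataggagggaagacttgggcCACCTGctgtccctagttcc
Klk1: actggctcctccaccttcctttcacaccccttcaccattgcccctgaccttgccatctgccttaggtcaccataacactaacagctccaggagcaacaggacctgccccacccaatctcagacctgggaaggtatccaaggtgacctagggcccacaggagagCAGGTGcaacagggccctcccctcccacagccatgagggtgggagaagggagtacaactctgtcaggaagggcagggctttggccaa
Bst2: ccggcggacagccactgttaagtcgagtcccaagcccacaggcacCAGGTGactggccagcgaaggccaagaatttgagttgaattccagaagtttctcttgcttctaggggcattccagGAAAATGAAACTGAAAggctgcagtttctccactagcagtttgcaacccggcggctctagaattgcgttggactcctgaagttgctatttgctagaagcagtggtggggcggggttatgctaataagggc
Siglech held 3 copies of the general E-box CANNTG, Klk1 held 2 and Bst2 held 1, and each window had 1 CACCTG or CAGGTG, itself a CANNTG. Bst2 also held 2 overlapping GAAA repeats, whose first bases lie at -130 and -124 from the start. Both strands of all 32851 promoters of the table were searched over the same length. CANNTG was found in 66.2% of them and CACCTG, on either strand, in 17.2%. The variant CAGCTG, found in none of the 3 windows, was in 4271 of the 32851. The GAAA repeat was in 2.98%, and the form that begins with GGAA in place of the first GAAA, absent here, in 2.30%. Of 11 marker genes looked up, 8 had a promoter in the table, with 9 windows. CACCTG was in 6 of the 9, and absent from those of Pacsin1 and Lair1 and from 1 of the 2 of Irf8. A match is a run of letters and was not tested as a site.

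The label was checked against Irf8 and Tcf4, which the rule did not use. Irf8 had a UMI in 33 of 37, 21 of 24, 29 of 29 and 8 of 8 pDCs. Tcf4 had one in 36 of 37, 24 of 24, 28 of 29 and 8 of 8. Of other markers, Cox6a2 had one in 33, 18, 25 and 8, Ly6d in 32, 19, 28 and 5, and Ly6c2 in 31, 19, 25 and 7 of them. After each barcode was thinned to 1000 UMIs, the share of pDCs with an Irf8 UMI was 81.1%, 79.2%, 93.1% and 75.0% in the same order, against 24.6%, 20.5%, 29.1% and 3.85% of B cells. The unthinned B cell shares were 45.9%, 29.5%, 72.2% and 50.0%, at median depths of 2295, 2160.5, 3483.5 and 13799 UMIs, and the pDC depths were 4522, 3536, 7766 and 9462. B cells, monocytes and conventional DCs, the 3 comparators, were gated in like manner on their own genes and had no Siglech UMI. Plasma cell genes stood at 377156 CPM in the B cell pool of trabecular GC, against 41007 in trabecular control.

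A few barcodes carried genes of another class, and this touches GC trabecular bone most. Its deepest pDC barcode held 58482 UMIs, which is 38.6% of the library's pDC UMIs, with 93 UMIs of Prtn3 (a granule protease of myeloid precursors), 104 of Lyz2 (lysozyme of myeloid cells) and 362 of the cell cycle list. Its second held 27795 UMIs, with 28 of Prtn3 and 6 of Lyz2. In control trabecular bone 3 barcodes had at least 2 UMIs of Cd79a and Cd79b, the B cell receptor chains, the deepest with 33 of them and 49 of the B cell factor Ebf1. In control callus 1 barcode, the deepest of its library at 13745 UMIs, had 14 UMIs of Lyz2, 22 of the macrophage gene C1qa and none of Irf8. GC callus had none. Leaving out these 6 barcodes leaves 36, 24, 26 and 6 pDCs. Those left in trabecular GC held 65110 UMIs, 25155 of them in 1 barcode. That barcode had 6 UMIs of Prtn3 and 107 of the cell cycle list. Intervals for counting error do not cover such unevenness between barcodes, on either set. Levels are over all pDCs unless said otherwise, and for many genes the trabecular GC level without its 2 such barcodes is added. Over all pDCs the depth per barcode ran from 2631 to 13745, 1774 to 10132, 1188 to 21363 and 5770 to 58482 UMIs, and the summed UMIs of Siglech, Ccr9 and Bst2 had medians of 39, 38, 34 and 37.5 with lowest values of 11, 6, 6 and 13. No barcode was a pDC in more than 1 library, though 7 to 12 passing barcodes were shared by any pair of libraries, and 1 pDC of control trabecular bone had the sequence of a passing barcode of GC callus.

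**Figure D1:**
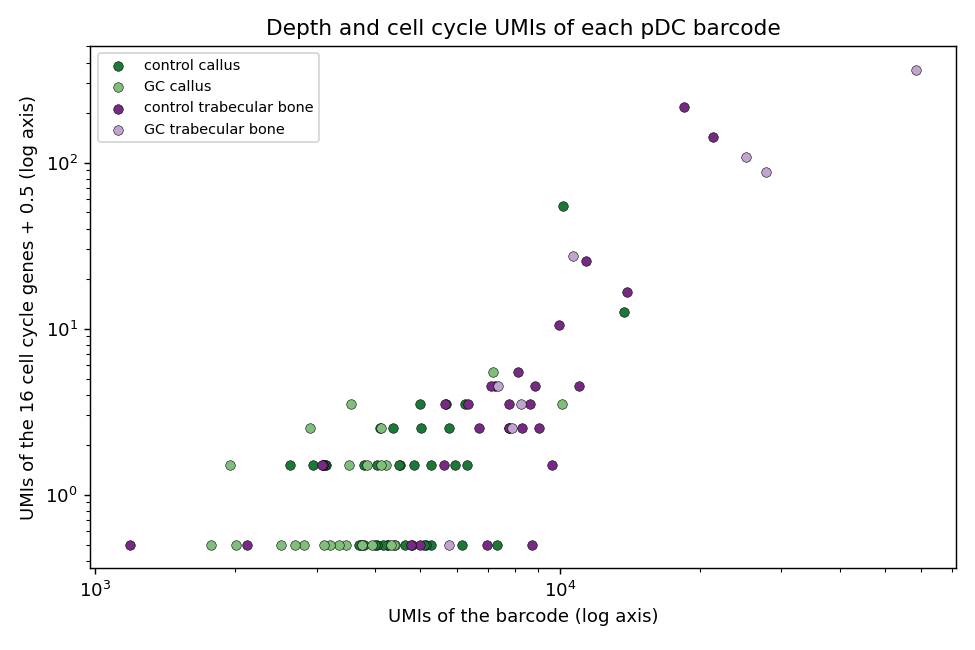
Each point is 1 of the 98 pDC barcodes, by its UMIs (horizontal, log axis) and its UMIs of the 16 cell cycle genes plus 0.5 (vertical, log axis), colored by library. The GC trabecular bone barcode of 58482 UMIs sits alone at the upper right with 362 cell cycle UMIs.

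pDCs were a smaller share of the barcodes with GC than with placebo in trabecular bone, and the difference in callus was within counting error. They made up 0.519% (0.365 to 0.714%) of callus control, 0.328% (0.210 to 0.488%) of callus GC, 0.729% (0.489 to 1.05%) of trabecular control and 0.167% (0.0722 to 0.329%) of trabecular GC barcodes. GC trabecular bone was the lowest, and its interval did not overlap that of the control. The ratio of GC over control was 0.229 (0.0905 to 0.514) in trabecular bone and 0.632 (0.362 to 1.09) in callus. B cells had smaller ratios, 0.0706 (0.0454 to 0.105) in trabecular bone and 0.269 (0.206 to 0.346) in callus. Monocytes had 0.920 (0.786 to 1.08) and 0.765 (0.655 to 0.892). Conventional DCs had 0.949 (0.301 to 3.08), on 8 against 7 barcodes, and 0.711 (0.446 to 1.12). For every 100 monocytes there were 9.71, 8.03, 9.48 and 2.36 pDCs, and for every 100 B cells 13.1, 30.8, 9.48 and 30.8, higher with GC in both tissues.

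**Figure D2:**
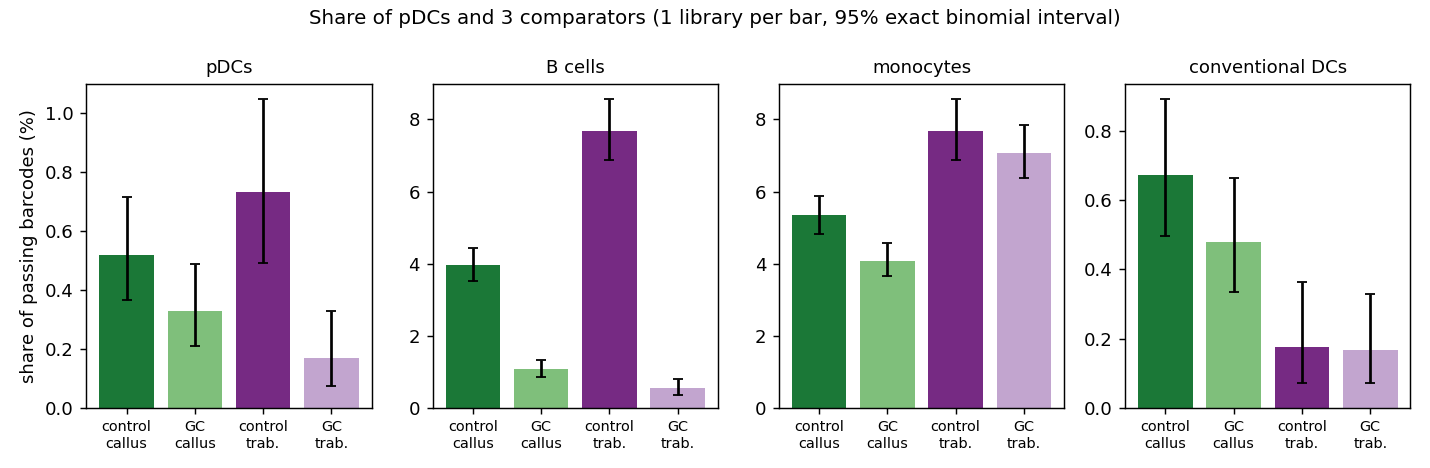
Bars give the share of passing barcodes (%) in each of the 4 libraries for pDCs and the 3 comparators, with exact binomial 95% intervals; the vertical scales differ. The pDC bar of GC trabecular bone stands at 0.167% against 0.729% in its control.

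The size of the callus share depended on the Col2a1 limit, which removed 7 barcodes of GC callus and 1 of control callus. The limit on S100a8 and S100a9 removed 3 of control trabecular bone. All 11 had a UMI of Irf8, Tcf4 and Ccr9. Without both limits the libraries held 38, 31, 32 and 8 pDCs. Of the members just inside the rule, 12 had exactly 2 Siglech UMIs, and 10 of these had Irf8. Just outside, 19 barcodes had 1 Siglech UMI and met the sum, 13 of them with Irf8, and 4 had at least 2 Siglech UMIs with a sum of 2 to 4.

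Counted without any gate, over all UMIs of passing barcodes, Siglech stood at 3.29, 4.17, 10.9 and 2.32 CPM (UMIs scaled to the same total in every pool). The ratio of GC over control was thus 1.27 (1.07 to 1.50) in callus, the other direction from the gated share, and 0.213 (0.168 to 0.268) in trabecular bone. pDCs held 92.5%, 78.1%, 85.1% and 88.0% of these UMIs. Cox6a2, a muscle-type cytochrome oxidase subunit that pDCs carry, had ratios of 0.654 (0.523 to 0.814) and 0.215 (0.175 to 0.263), and the receptor gene Cd300c had 0.689 (0.413 to 1.12) and 0.257 (0.152 to 0.417). Klk1 had 0.0540 (0.00132 to 0.329), on 1 against 26 UMIs, and 0.196 (0.0581 to 0.526), on 5 against 23 UMIs. Of the Cox6a2 UMIs pDCs held 76.3%, 50.0%, 73.5% and 58.3%, and of the Cd300c UMIs 52.8%, 50.0%, 77.9% and 45.5%. In such totals fewer pDCs, less RNA per pDC and a change in other barcodes cannot be told apart.

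Levels from here on are CPM over the summed UMIs of the pDCs of a library, which came to 184779, 91373, 235682 and 151387 UMIs. Siglech itself stood at 1467, 2265, 1404 and 535 CPM, Ccr9 at 4746, 7672, 1256 and 515, and Bst2 at 1618, 1226, 2321 and 852 in the order given. The trabecular GC levels without the barcodes of another class were 1137 for Siglech, 1044 for Ccr9 and 1459 for Bst2. These genes set the gate and are a description. Free RNA of the 3 libraries with empty droplets held 2.45 CPM of Siglech (callus control), 7.86 (trabecular control) and 1.99 (trabecular GC).

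The leading transcription factors were those known for the lineage, and the comparison with other cells is a description since the gate made it. Irf8 stood at 2116 CPM (1911 to 2337), 2178 (1886 to 2502), 2707 (2501 to 2925) and 1387 (1206 to 1588), in the same order. It was at most 325 in monocytes and 505 in conventional DCs of any library. Tcf4 stood at 1618 (1440 to 1812), 1149 (940 to 1391), 2694 (2489 to 2912) and 1110 (948 to 1291). Control trabecular bone was highest for both. Trabecular GC stood, without the barcodes of another class, at 2135 (1795 to 2521) for Irf8 and 2166 (1823 to 2554) for Tcf4, the latter above both callus levels. Runx2, a Runt factor better known from osteoblasts and also present in pDCs, stood at 319, 153, 823 and 495, and Bcl11a at 449, 471, 280 and 126. Without the same barcodes Runx2 stood at 998 in trabecular GC and 884 in trabecular control, so that the order of these libraries turned, at 1.13 times (0.837 to 1.51), and Bcl11a stood at 215 in trabecular GC. Of 12 factors on the list, 6 were above all 3 comparators in all 4 libraries, namely Tcf4, Irf8, Runx2, Bcl11a, Ikzf1 and Mef2c, where 11.7% of all 3627 genes with at least 30 UMIs were.

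Of 25 surface and identity genes outside the rule, 15 were above the comparators in every library. Cox6a2 was the clearest, at 1082 CPM (938 to 1243), 668 (511 to 858), 1566 (1410 to 1734) and 462 (360 to 584), and 11.4 was the highest level in a comparator. Its trabecular GC level was 753 without the barcodes of another class. Klk1, a tissue kallikrein, had 24, 1, 22 and 5 UMIs in pDCs and none in any comparator. The lymphoid surface gene Ly6d, which B cells share, stood at 1602, 1335, 3993 and 806. Ighm, the heavy chain gene of IgM, stood at 1142, 1510, 1455 and 469 while Cd79a was at 0 in both callus libraries and in GC trabecular bone. The trabecular GC level of Ighm was 768 without the same barcodes. Of 10 T and NK cell markers, Cd3e, Cd3g, Klrb1c, Ncr1 and Gzma had no UMI in any pDC, while the costimulatory receptor Cd28 had 27, Lck 5, Nkg7 4, Trac 2 and Cd3d 1. The 10 summed to 16.2, 98.5, 93.3 and 33.0 CPM, led by Cd28 in the first 3. In GC callus this was above B cells (54.0), monocytes (17.5) and conventional DCs (8.71), and in control trabecular bone too (66.9, 79.5 and 8.41). The pDC intervals there, 45.0 to 187 and 58.5 to 141, held the B cell levels. In control callus pDCs were below all 3 (41.2, 46.7 and 17.5). In GC trabecular bone they were below B cells (46.9) and monocytes (131) and above conventional DCs (22.1).

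**Figure D3:**
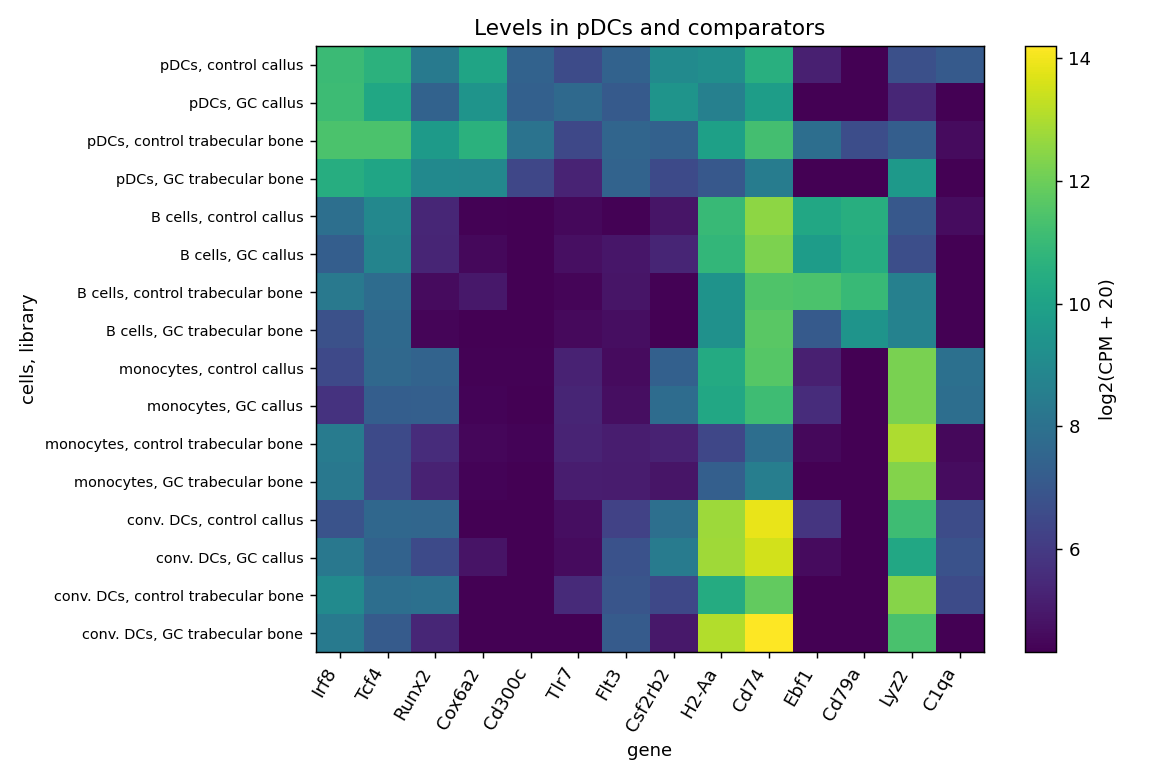
Each tile is a level, log2(CPM + 20), of 1 gene (columns) in pDCs or a comparator of 1 library (rows). Irf8, Tcf4, Cox6a2 and Cd300c are bright in the 4 pDC rows, and H2-Aa and Cd74 are brightest in conventional DCs within each library.

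Interferon transcripts were not detected, and interferon-stimulated genes were sparse apart from a few. Ifnb1, Ifna1, Ifna2, Ifna4, Ifnl2 and Il12b had no UMI in any of the 98 pDCs, which allows up to 16.2, 32.8, 12.7 and 19.8 CPM (3 UMIs each). Irf7, the factor that amplifies interferon production, had 4, 1, 14 and 0 UMIs. Tlr7, the endosomal receptor for single-stranded RNA, stood at 75.8 CPM (41.4 to 127), 186 (108 to 298), 67.9 (38.8 to 110) and 19.8 (4.09 to 57.9, or 46.1 without the barcodes of another class), and the DNA receptor Tlr9 had 1, 1, 0 and 2 UMIs. Unc93b1, which carries these receptors to endosomes, stood at 617, 711, 632 and 350 CPM, the last being 614 without the barcodes of another class. Of the 18 genes of sensing and interferon production, Tlr7, Tlr12 and Slc15a4 were above the comparators throughout, a count of 3 to be read beside the 11.7% of all genes, and Tlr12 had only 2, 1, 7 and 2 UMIs. Among interferon-stimulated genes Isg15 had 0, 0, 1 and 0 UMIs and Ifit3 had 1, 0, 0 and 0, while Ly6e led the list at 1526, 1773, 1595 and 1123 CPM.

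Antigen presentation genes stood below conventional DCs, whose gate used Cd74. The 17 genes summed to 6862, 4870, 8724 and 2682 CPM in pDCs against 38997, 34246, 14743 and 46177 in conventional DCs, which were only 7 barcodes in control trabecular bone. In that library pDCs stood above B cells (8254) and monocytes (3546), and in the others below both. Without the barcodes of another class the trabecular GC sum was 4224 CPM, above monocytes (3039) and below B cells (7683). H2-Aa, a class II chain, stood at 574, 372, 963 and 112 CPM in pDCs against 6893, 6988, 1313 and 8506 in conventional DCs. Cd74, the invariant chain, stood at 1499, 886, 2397 and 330. The trabecular GC levels were 261 for H2-Aa and 706 for Cd74 without the barcodes of another class. Of the 17 genes of the list 0 were above all comparators in every library, beside 11.7% of all genes, and the costimulatory gene Cd40 had no UMI.

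Between the tissues, callus pDCs carried more of several cytokine receptor and signal genes than trabecular bone pDCs, in controls and with GC alike. Cell cycle and immediate early genes were lower in callus in controls, while with GC their differences depended on which barcodes were counted. A log2 ratio was formed after 20 CPM were added to each level, for genes with at least 30 UMIs over both libraries, and called past 2-fold at an absolute value of 1 or more. In controls 8.49% of 2461 genes were past 2-fold higher in callus and 7.27% lower, 15.8% in either direction. With GC these shares were 18.3% and 25.9% of 1386 genes, 44.2% in either direction, and the median of all genes was -0.18. Without the barcodes of another class the GC comparison had 141 genes higher and 111 lower of 801 and a median of 0.0080, so that the balance turned from mostly lower to mostly higher. Of 1330 genes with the minimum in both, 66 were past 2-fold higher in callus in both treatments, 67 lower in both, and 0 went opposite ways. The contrasts share no library. Without the barcodes of another class 787 genes kept the minimum in both, with 48 past 2-fold higher and 33 lower, of which 45 and 30 were among the 66 and 67.

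Of the cytokine and homing receptors, those past 2-fold higher in callus in controls included Csf2rb2, Il7r and Csf2rb, and with GC the same 3 of 7 genes with the minimum were past 2-fold higher. Csf2rb2, the beta chain particular to the mouse IL-3 receptor, stood at 514 CPM (416 to 628) in control callus and 668 (511 to 858) in GC callus against 149 (103 to 207) and 72.7 (36.3 to 130) in trabecular bone. The callus level was 3.46 times (2.33 to 5.26) the trabecular level in controls and 9.19 times (4.79 to 19.4) with GC, or 6.21 times (2.84 to 16.1) without the barcodes of another class. Il7r, the IL-7 receptor, stood at 758, 996, 267 and 112 CPM, the last being 261 without those barcodes. The 2 callus libraries were above the 2 trabecular libraries for both genes. Monocytes differed the same way, with log2 ratios for Csf2rb2 of 2.09 in controls and 2.93 with GC.

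For other genes the log2 ratios in pDCs and in monocytes of the same libraries are set side by side, and the difference between the cell types was not tested. Stat2, which relays the interferon signal, stood at 417 CPM (329 to 521) and 350 (240 to 494) in callus pDCs and 80.6 (48.5 to 126) and 33.0 (10.7 to 77.1) in trabecular pDCs. The gene lies at chr10:128270559-128292849 (GRCm38). Its log2 ratio of callus over trabecular bone was 2.12 in controls and 2.80 with GC in pDCs, and 0.15 and 0.81 in monocytes. Ifnar1, a chain of the receptor that Stat2 serves, had 1.43 and 2.56 in pDCs and 0.88 and 1.43 in monocytes, and the GC value in pDCs was 1.45 without the barcodes of another class. Sirpa, the inhibitory receptor for CD47, stood at 595 and 449 CPM in callus pDCs and 123 and 92.5 in trabecular pDCs, log2 ratios of 2.10 and 2.06 against 0.01 and 0.00 in monocytes. Xbp1, which drives the secretory program, had 1.21 and 2.65 against -0.11 and -0.05. Lpgat1, an acyltransferase of phospholipids, stood at 1023, 1587, 165 and 19.8 CPM, on 189, 145, 39 and 3 UMIs. Its log2 ratios were 2.49 and 5.33, against 0.29 and 0.54 in monocytes, and the GC value rests on those 3 UMIs, or on 2 UMIs (30.7 CPM, a log2 ratio of 4.99) without the barcodes of another class. Ptprc (CD45) had 1.27 and 2.39, or 1.76 for the latter without those barcodes, against -0.021 and 0.15. In these genes the callus libraries were both above the trabecular ones.

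Runx2 ran the opposite way in the 2 cell types. It was lower in callus pDCs by log2 ratios of -1.31 in controls and -1.57 with GC (-2.56 without the barcodes of another class) and higher in callus monocytes by 1.90 and 2.06. The summed bone-forming cell markers stood at 6695, 15815, 36.9 and 105.5 CPM in monocytes and 2376, 1795, 21.2 and 92.5 in pDCs. The part of RNA from such cells in the Runx2 ratios was not tested. Bcl2l11 (Bim), which promotes apoptosis, was past 2-fold higher in callus pDCs (579 and 1149 CPM against 246 and 132, the last being 200 without the barcodes of another class), and in monocytes too (1.31 and 2.18). Of the 66 genes higher in callus pDCs, 65 had the minimum in monocytes and 32 were past 2-fold higher there in both treatments, where 6.54% of all monocyte genes were. Of the 67 lower, all 67 had it and 41 were past 2-fold lower there, where 4.31% of all were. In conventional DCs 19 of 44 with the minimum were past 2-fold higher, beside 11.2% of all, and 26 of 48 lower, beside 5.08%. In B cells 20 of 50 were higher, beside 7.78% of all, and 14 of 65 lower, beside 1.47%.

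Cell cycle genes were lower in callus in controls, and with GC the count rested on few barcodes. In controls 5 of 6 with the minimum were past 2-fold lower, beside 7.27% of all genes (median log2 ratio -1.85, beside 0.03 for all genes), and with GC 7 of 7, beside 25.9% (-3.53, beside -0.18). With the barcodes of another class left out, the control count was again 5 of 6 (-1.42), and with GC Stmn1 alone kept the minimum, at -3.65. The summed level of the 16 genes was 520 CPM (421 to 634), 219 (134 to 338), 1931 (1757 to 2116) and 3911 (3602 to 4239), the last being 2196 (1851 to 2587) without its barcodes of another class. A single barcode held 56.2% of the list's UMIs in callus control, 47.5% in trabecular control and 61.1% in trabecular GC. Without the barcodes of another class a single barcode held 64.3%, 68.8% and 74.8% in these 3 libraries. At least 2 UMIs of the mitotic genes Mki67 and Top2a were found in 1 of 37, 0 of 24, 3 of 29 and 3 of 8 pDCs, and in 1 of the 6 left of the last group. A count of 2 UMIs is met more easily by a deep barcode. Monocytes stood at 830, 482, 3307 and 3545 CPM for the list, so the tissues differed the same way there.

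Klf4, a zinc-finger factor, stood at 43.3 CPM (18.7 to 85.3) and 32.8 (6.77 to 96.0) in callus pDCs and 590 (496 to 696) and 760 (627 to 912) in trabecular pDCs, of which 1 barcode gave 55% in the last. Its log2 ratios of -3.27 and -3.88 compared with -1.71 and -0.66 in monocytes. Of the dissociation stress list, 7 of 10 genes were past 2-fold lower in callus in controls, where 7.27% of all genes were, and 7 of 8 with GC, where 25.9% were, and 2 of 5 with GC without the barcodes of another class. Without the S100 and Col2a1 limits Fos and Fosb with GC were higher in callus instead, by log2 ratios of 1.04 and 1.38. Jund, an AP-1 subunit, stood at 476, 131, 2775 and 925 CPM. Genes of other tissue cells moved with the tissue as well. The summed chondrocyte markers stood at 3626, 1401, 0 and 0 CPM with Col2a1, a gene of the gate, the most abundant in callus. The neutrophil list stood at 265, 328, 3755 and 3706, led by S100a8, also of the gate. In free RNA the neutrophil list stood at 2828 CPM (callus control), 201755 (trabecular control) and 129118 (trabecular GC). For these 3 libraries the chondrocyte list stood there at 57295, 12.4 and 43.5 CPM. The bone-forming cell list, which holds Sparc and Spp1, stood there at 31977, 212 and 168 CPM. The part of such genes in the differences above was not tested. B cells of the same libraries held Csf2rb2 at 20.3 CPM at most.

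In controls, beside the 8.49% of all genes higher and 7.27% lower, 2 of 21 pDC surface genes were past 2-fold higher in callus and 3 lower, and 0 of 11 transcription factors were higher and 1 lower, Runx2. With GC, beside the 18.3% of all genes higher and 25.9% lower, 8 of 13 surface genes were higher and 1 lower, or 5 and 2 of 13 without the barcodes of another class. Of interferon-stimulated genes Stat2 and Ifnar1 of 9 were higher in controls and Ifi203 lower, and 3 of 5 were higher with GC. Antigen presentation had 0 of 11 higher and H2-DMa lower in controls, and 5 of 8 higher and 1 lower with GC, or 2 of 7 and 0 without the barcodes of another class. Protein export and folding in the endoplasmic reticulum had 1 of 17 higher in controls, Xbp1, and 2 of 15 higher and 3 lower with GC, or 2 and 1 of 13 without those barcodes. Of the bone-forming cell markers 5 of 5 with the minimum were higher in callus in controls and 2 of 2 with GC, and of the erythroid markers 4 of 4 and 3 of 3 were lower. The 8 genes furthest up in both treatments were Sparc, Fnip2, Spp1, Lpgat1, Hmox1, Ugcg, Lgmn and Stat2, and the 8 furthest down Retnlg, Lcn2, Klf4, Rgcc, Hbb-bs, Jund, Tubb5 and Hist1h2bc.

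**Figure D4:**
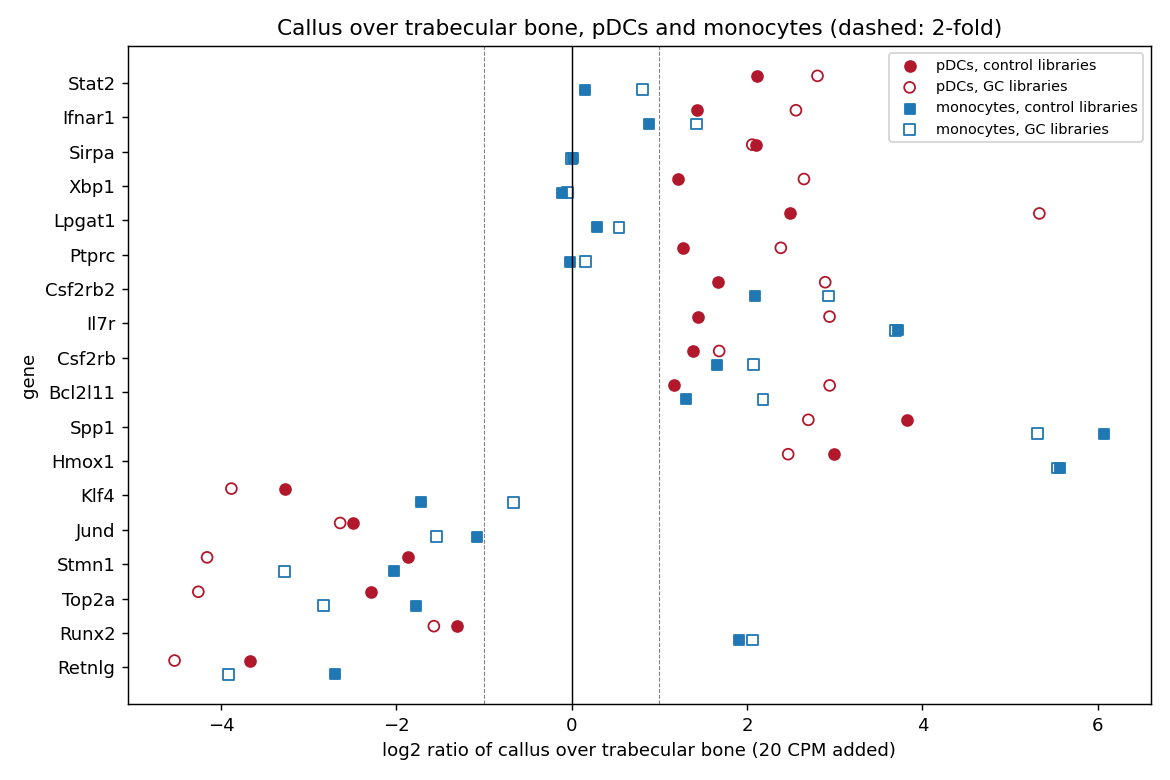
Points give log2 ratios of callus over trabecular bone (horizontal, 20 CPM added) for 18 genes (vertical) in pDCs (circles) and monocytes (squares), filled for control and open for GC libraries; dashed lines mark 2-fold. Sirpa lies at 2.10 and 2.06 in pDCs with monocytes at 0, and Runx2 lies on opposite sides.

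With GC, no identity gene or lineage factor with the minimum was past 2-fold different between callus pDCs and their control, while Tlr7 was higher and H2-Eb1 lower. Past 2-fold were 3.47% of 1644 genes higher and 5.35% lower, 8.82% in either direction. Without the S100a8, S100a9 and Col2a1 limits of the rule 216 were higher and 193 lower, in place of 57 and 88, so this comparison depends on those limits. Of the pDC surface genes 0 of 15 with the minimum were past 2-fold (median -0.26), and of the transcription factors 0 of 11 (-0.18), where all genes had a median of -0.06. Irf8 was 1.03 times (0.863 to 1.22) its control level. Higher were Tlr7 at 2.46 times (1.14 to 5.38), on 17 against 14 UMIs, and Pik3ip1, a PI3 kinase inhibitor, at 2.56 times (1.23 to 5.42). Bcl2l11 stood at 1.98 times (1.50 to 2.62), a log2 ratio of 0.96. Lower were H2-Eb1, a class II chain, at 0.150 times (0.0394 to 0.406), 54 UMIs against 4, the chemokine receptor Ccr2 at 0.365 times (0.173 to 0.699), and Jun, Jund and Fos of 6 dissociation stress genes. Of 14 genes of protein export and folding in the endoplasmic reticulum 0 were higher and 1 lower, Ssr4, at 0.343 times (0.156 to 0.676), 59 UMIs against 10. Of 5 bone-forming cell markers Col1a2 was lower. Without those limits Jund, Fos and Col1a2 were higher instead, by log2 ratios of 0.46, 1.24 and 2.24, and Ssr4 was at -0.64. Of 5 chondrocyte genes 3 were past 2-fold lower (median -1.12), and the summed chondrocyte markers, Col2a1 included, stood at 3626 and 1401 CPM. Without the limits this median reversed to 1.15, with Comp at 1.32 and Col10a1 at 1.17, and Cd63 reversed to 0.24. The highest genes by the naming rule included mt-Atp8, Rnd3, Phf20l1, Ptafr, Kdm1a, Rsrp1 and Hivep3, and the 8 lowest Ccl4, Cxcl2, H2-Eb1, Ndufc2, Cd63, Col9a2, Jun and H2-Q7. Cxcl2 had 3 against 88 UMIs. Without the deepest barcode of each library it had 3 against 47, at 0.134 times (0.0268 to 0.417). Ccl4, Ndufc2 and Cd63 then fell under the minimum.

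In trabecular bone several pDC genes were lower with GC. Past 2-fold were 7.34% of 2179 genes higher and 10.5% lower, 17.8% in either direction. With the barcodes of another class left out, 30 were higher and 101 lower of 1452, in place of 160 and 228. Of 18 pDC surface genes with the minimum 14 were past 2-fold lower and 0 higher (median -1.52, beside 0.02 for all genes), and of 11 transcription factors 4 were lower (Spib, Id3, Tcf4 and Bcl11a). Without the barcodes of another class 6 of 17 surface genes were past 2-fold lower (median -0.79) and 1 of 10 factors (median 0.03). Cox6a2 was 0.295 times (0.225 to 0.382) its control level, and 0.443 times (0.322 to 0.599) without them. Ly6d was 0.202 times (0.166 to 0.244), and 0.268 times (0.210 to 0.339) without them. Tcf4 was 0.412 times (0.345 to 0.489), and 0.767 times (0.633 to 0.924) without them. Cox6a2 and Ly6d were past 2-fold lower on either set, and Tcf4 only with all 8 barcodes.

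Antigen presentation genes fell on the same side. In trabecular bone 7 of 11 were past 2-fold lower (median -1.17), beside 10.5% of all genes (median 0.02). Without the barcodes of another class 5 of 11 were (median -0.62, beside 0.002 for all genes), namely H2-Aa, H2-Ab1, H2-Eb1, Cd74 and B2m. H2-Aa was 0.117 times (0.0667 to 0.191) its control level, on 17 against 227 UMIs, and 0.248 times (0.142 to 0.407) without them, and 2 of 8 pDCs had a UMI of it. In callus 1 of 8 was past 2-fold lower (median -0.51), beside 5.35% of all genes (median -0.06). The cell cycle list had 6 of 10 genes past 2-fold higher in trabecular bone (median 1.01), beside 7.34% of all genes. Without the barcodes of another class this became 0 higher and 2 of 5 lower (-0.39). Monocyte genes (3 of 3 higher, F13a1, Lyz2 and Ms4a6c) and B cell genes (4 of 4 lower, Ebf1, Vpreb3, Ighm and Blnk) moved in the full set. Beside them stand 7.34% of all genes higher and 10.5% lower. The summed monocyte list stood at 306 CPM in control and 1777 in GC trabecular bone, and at 281 and 476 without those barcodes. The 8 highest genes by the naming rule were F13a1, Prtn3, Hp, Thbs1, Mcm3, Ctsg, Pclaf and Tpi1, several of them genes of myeloid precursors, and the lowest included Ebf1, H2-Aa, H2-Ab1, Zfp36l1, Cd74, Ly6a and Vpreb3. In Ebf1 and Vpreb3 1 barcode of trabecular control gave nearly all UMIs. Interferon-stimulated genes had 3 of 6 past 2-fold lower, Ly6a, Ifi27l2a and Trim30a, on either set of barcodes, beside 10.5% of all genes in the full set. Of 19 genes of protein export and folding Sdf2l1 and Pdia6 were higher and Herpud1 lower, beside 7.34% and 10.5% of all genes. Of 15 without the barcodes of another class Pdia6 was higher and Herpud1 lower. The dissociation stress list had 6 of 10 genes past 2-fold lower (median -1.16), beside 10.5% of all genes (median 0.02). Without the barcodes of another class it had 5 of 9 (median -1.09, beside 0.002 for all genes). The part of this list in the differences was not tested.

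Of 1365 genes with the minimum in both tissues, 12 were past 2-fold lower with GC in both, 0 higher in both and 13 opposite. These 12 are to be read beside 74 genes lower in callus and 168 lower in trabecular bone, and 638 of the 1365 had the same sign in both tissues, so the list is a description and not a shared set. Il12a, at chr3:68690644-68698547 (GRCm38), encodes the p35 chain of IL-12. It stood at 173 CPM (118 to 244), 32.8 (6.77 to 96.0), 255 (194 to 328) and 59.5 (27.2 to 113), the last being 123 without the barcodes of another class. Both GC libraries were below both controls. The GC level was 0.190 times (0.0371 to 0.606) the control in callus, on 3 against 32 UMIs, and 0.234 times (0.102 to 0.474) in trabecular bone, or 0.498 times (0.204 to 1.06) without the barcodes of another class. Dntt, the terminal transferase of early lymphoid cells, had 8 against 41 UMIs in callus and 4 against 35 in trabecular bone, at 0.395 times (0.160 to 0.853) and 0.178 times (0.0459 to 0.498). Tifa, an adaptor of NF-kB signaling, had log2 ratios of -1.21 and -1.56. Ccl4, a chemokine, had 66 UMIs in control callus, 64% of them in 1 barcode, and 0 in GC callus. In trabecular control 1 barcode gave 75% of its 102 UMIs. The others were H2-Eb1, H2-Q7, Jun, Jund, Fos, Rilpl2, Timp2 and Ldlrad4. Apart from the list genes, all of the 12, Il12a and Tifa included, were chosen after their values were seen. Timp2 in callus was higher, by a log2 ratio of 0.996, without the Col2a1 and S100 limits. Without the barcodes of another class 10 of the 12 kept the minimum and 5 were past 2-fold lower in both. Monocytes had the minimum for 10, and 0 of them were past 2-fold lower in both, as were 0 of all 8116 monocyte genes with the minimum, so this count does not set the 12 genes apart.

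**Figure D5:**
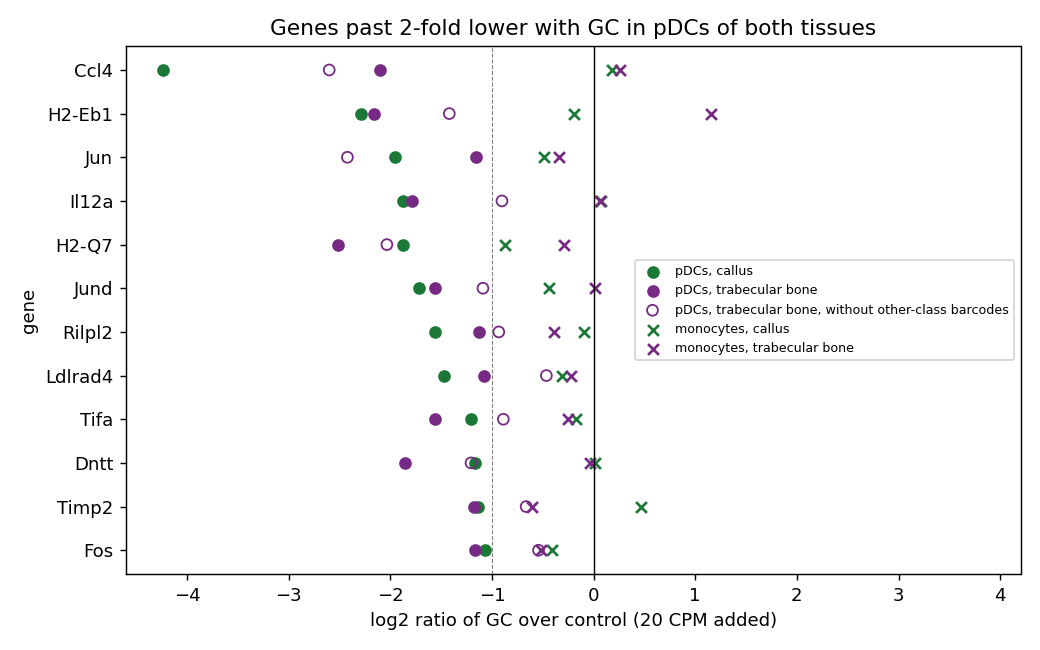
Points give log2 ratios of GC over control (horizontal, 20 CPM added) of the 12 genes (vertical) in pDCs of callus and trabecular bone, in trabecular bone without the barcodes of another class (open), and in monocytes (crosses). Il12a lies at -1.87 and -1.79 in pDCs and at 0.07 and 0.06 in monocytes. The callus point of Ccl4 rests on 0 UMIs with GC and is set by the added 20 CPM.

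The 24 genes of glucocorticoid reception and response summed to 499, 321, 812 and 447 UMIs, led by Il7r in callus and Klf4 in trabecular bone, while some of the best known were measured on few. The receptor gene Nr3c1 stood at 97.4, 142, 127 and 99.1 CPM. Fkbp5, a chaperone that the receptor induces in many tissues, had 6, 6, 9 and 13 UMIs, and was 2.02 times (0.541 to 7.56) the control in callus and 2.25 times (0.889 to 5.96) in trabecular bone. Tsc22d3 (GILZ), another such gene, was 1.44 times (0.362 to 5.29) and 1.26 times (0.711 to 2.20). No difference was detectable for Fkbp5 and Tsc22d3 at this depth. Rgs2, a regulator of G protein signalling, had 8, 20, 71 and 7 UMIs, and was 5.06 times (2.13 to 13.3) the control in callus, on fewer UMIs than the minimum, and 0.153 times (0.0596 to 0.333) in trabecular bone. Nfkbia, the inhibitor of NF-kB, was 1.20 times (0.729 to 1.93) and 0.423 times (0.275 to 0.634). Of the 24 genes, beside 3.47% of all genes higher and 5.35% lower in callus and 7.34% and 10.5% in trabecular bone, 7 had the minimum in callus, with 1 higher, and 11 in trabecular bone, with Fkbp4 higher and Rgs2, Nfkbia and Il7r lower. When the barcodes of another class were left out, 9 had the minimum in trabecular bone, with 0 higher and Nfkbia and Rgs2 lower.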

How the data were processed

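The 4 libraries were analysed as 10x Genomics single-cell RNA-Seq matrices, whose values are raw UMI counts per gene and barcode as the authors deposited them, without normalization. The submitters' processing notes name Cell Ranger 5.0.1, Seurat 3.2.0 and the mm10 build, whereas the file headers name Cell Ranger version 4. Matrices of 3 libraries list all 6794880 barcodes, and that of GC callus only 7762, each with at least 500 UMIs, so that empty droplets (1 to 100 UMIs) were read from the other 3. Tissue was digested and filtered before capture. No cell labels of the study were used.

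Counts were summed over the gated barcodes of a library and divided to CPM with numpy 2.4.6 and pandas 2.3.3 under Python 3.11.15, with intervals from scipy 1.17.1 and plots from matplotlib 3.10.9. Intervals are exact (Poisson, Clopper-Pearson, or conditional for a pair of Poisson counts). No doublet caller was run. Barcodes with at least 2 UMIs of Cd79a and Cd79b or of Cd3d, Cd3e and Cd3g, or 5 of Lyz2, were treated as carrying another class. Comparators met the filters and the S100a8, S100a9 and Col2a1 limits with 0 Siglech UMIs. B cells had at least 2 Cd79a UMIs and 5 of Cd79a, Cd79b and Ms4a1. Monocytes had 0 Cd79a UMIs, at least 2 of Lyz2 and 5 of Csf1r, F13a1, Ms4a6c and Ccr2. Conventional DCs had 0 Cd79a UMIs, at least 10 of Cd74 and 3 of Flt3, Cd209a, Clec9a, Xcr1, Ciita, Zbtb46 and Itgax. The log2 ratio was run on simulated Poisson counts from 1 pooled profile per tissue. Of genes given a change beyond 2-fold, 98.86% in callus and 97.65% in trabecular bone came out past 2-fold the right way. Of unchanged genes 2.52% and 0.978% came out past 2-fold. The simulated counts held no unevenness between barcodes, so the run does not cover genes that 1 barcode dominates. The pDC members and the 23 gene lists (306 genes, of which 1 was not found in the files) were chosen with earlier results of these data known. Named genes are those of the lists and the 8 highest and 8 lowest log2 ratios per tissue and between tissues. Genes past 2-fold the same way with GC in both tissues were named as well. Promoters are from RefSeq, exons from GENCODE M21 on GRCm38, where 32158 of 32285 gene identifiers matched. A few genes that the rule names are not reported here.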

Additional observations from a re-analysis of the deposited data

Results flagged for a closer look

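With GC the medians of 3 lists went opposite ways in pDCs of callus and of trabecular bone, as log2 ratios of GC over control. Nucleic acid sensing and interferon production had 0.40 in callus and -0.64 in trabecular bone, on 4 and 3 genes. Its summed trabecular level was 1061 CPM in control and 746 with GC. Without the barcodes of another class these levels were 1056 and 1090 CPM, so the trabecular fall rests on those barcodes. Glucocorticoid receptor and response had 0.39 and -0.31, on 7 and 11 genes. Without those barcodes its trabecular median was -0.12 on 9 genes, beside 0.002 for all genes. Survival and apoptosis had 0.33 and -0.46, on 3 and 4 genes, and its trabecular median was -0.37 on 4 genes without those barcodes. With 1 library per group the difference between the tissues was not tested.

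Siglech UMIs also lay outside the pDCs. There were 58 of them in GC callus against 22 in control callus, and 58 in control trabecular bone against 11 in GC trabecular bone. The Col2a1 limit had removed 7 GC callus barcodes, of a median 18041 UMIs, that met the rest of the rule.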

How the results depend on the processing

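Under the alternatives run, the ratio of the pDC share with GC over control was 0.580 to 0.795 in callus and 0.192 to 0.404 in trabecular bone. The share was 0.369% in control trabecular bone with at most 5% mitochondrial UMIs, 0.764% in control callus among barcodes of at least 2000 UMIs, and 1.35% and 0.944% in control and GC callus over barcodes with a Ptprc UMI. Counts of genes past 2-fold are given as higher and lower. With at least 100 UMIs they were 5 and 11 for GC over control in callus, 30 and 64 in trabecular bone, 44 and 50 for callus over trabecular bone in controls and 39 and 87 with GC. With no minimum they were 724 and 747, 508 and 701, 650 and 561, and 1544 and 1365. After thinning to 1000 UMIs they were 9 and 14, 3 and 17, 29 and 29, and 18 and 16. Thinning and the higher minimum left fewer genes to compare, and no minimum added genes of few UMIs. As a mean over barcodes trabecular bone had 106 and 122, and with at most 5% mitochondrial UMIs 135 lower. Without the barcodes of another class trabecular bone had 30 and 101 and the GC tissue comparison 141 and 111. Without the deepest barcode these were 85 and 149, and 166 and 188. Without the S100a8, S100a9 and Col2a1 limits callus had 216 and 193 and the GC tissue comparison 439 higher. The Ptprc denominator, leaving out the deepest barcode, and comparing genes without the limits were chosen after seeing the data.

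Values past 2-fold that changed sign follow. Without the limits, GC over control in callus gave log2 ratios of 1.15 for the median of the chondrocyte list, 1.32 for Comp, 1.17 for Col10a1, 2.24 for Col1a2, 1.24 for Fos, 0.46 for Jund, 0.24 for Cd63, 0.16 for Tubb5 and 0.996 for Timp2. Callus over trabecular bone with GC gave -0.069 for Cd7, 0.18 for F13a1, 1.04 for Fos, 1.38 for Fosb and 0.95 for Thbs1. In trabecular bone GC over control gave 0.054 for Ldlrad4 as a mean over barcodes, 0.12 for Ccr9 after thinning, -0.39 for the cell cycle median and -0.40 for Lyz2 without the barcodes of another class, and -0.042 for Lyz2 without the deepest barcode. Of 5445 values of single genes 4871 lay within the counting interval of the reported value, 557 lay outside it, and 17 that were past 2-fold changed sign, and of 560 list medians these counts were 519 (within the interval of the median over the members), 39 and 2. A further 288 values of genes under 2-fold changed sign. No paired analysis was possible because each group is 1 library. With 8 pDCs in GC trabecular bone, genes under the minimum of 30 UMIs could not be compared there.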
